A study of Mus musculus with 12 samples.

Results

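The 9 genes Ppp1r1b, Rgs9, Gng7, Gnal, Ptpn5, Rasgrp2, Arpp21, Scn4b and Syndig1l were grouped as striatal dopamine signalling and excitability genes. They were chosen by name, and each of the 9 had a row in every one of 3 deposited tables of 23951 rows. The tables compare cortex of C57BL/6 mice that differ in Mir137, which encodes the microRNA miR-137, with 3 genotypes: knockout (KO), heterozygous (Het, given in the labels as miR-137/+) and wild type (WT). Each genotype had 4 libraries, 12 in all, and the study asks what miR-137 does in neurodevelopment. The labels used here state neither the age or sex of the animals nor how the allele was made.

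Values are the authors' RPKM, read counts scaled by transcript length and by the size of the library, so levels of different genes can be set side by side. Each table holds 1 value per genotype with the libraries pooled, so no SD can be attached to a level and the depth of a library is unknown. The words rose and fell are kept for an adjusted p below 0.05 by the authors' deposited table. A log2 fold is the difference between 2 values of log2(RPKM + 1), which understates changes of low genes. Whether the 4 libraries of a genotype are separate animals is not stated, and the p-values measure the spread between libraries, which may be technical. The KO and Het comparisons with WT share the same WT libraries. Mir137 itself is listed at 0 RPKM in KO, Het and WT in the authors' deposited tables, so the genotype labels could not be checked against it.

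Dopamine acts on striatal projection neurons through receptors that raise or lower cyclic AMP. The stimulatory receptor works through a G protein whose alpha subunit comes from Gnal and whose gamma subunit comes from Gng7, and this G protein drives adenylyl cyclase and protein kinase A. Protein kinase A turns DARPP-32, the product of Ppp1r1b, into an inhibitor of protein phosphatase 1. Rgs9 speeds the shutdown of inhibitory G proteins, Ptpn5 encodes the tyrosine phosphatase STEP, and Rasgrp2 encodes an activator of the small GTPase Rap1. Arpp21 encodes a cyclic AMP-regulated RNA-binding phosphoprotein, Scn4b a sodium channel beta subunit, and Syndig1l a transmembrane protein related to the synaptic protein SynDIG1.

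The mature miR-137 is shown because it is the RNA that the altered allele encodes, and miR-128 because its gene Mir128-2 lies inside Arpp21. Sequences are RefSeq's on GRCm38.p6, a later build than the mm9 of the deposited tables, and capitals mark the seed, bases 2 to 8.
mmu-miR-137-3p, chr3:118433901-118433923, plus strand: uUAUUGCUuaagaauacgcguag
mmu-miR-128-3p, chr9:112118644-112118664, minus strand: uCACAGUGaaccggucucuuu
The 9 genes lie on 7 chromosomes in GENCODE M21, and 0 of them lie on chromosome 3 with Mir137. Of 14 coding transcripts annotated for Arpp21, 7 span Mir128-2 and 0 of those have an exon over it, so the microRNA sits in an intron on the same strand. No level of miR-128 was measured.

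Bases complementary to the miR-137 seed, AGCAATA, were searched for in the longest annotated 3' UTR of each gene. Matches were found in 2 of the 9 genes, Rgs9 and Ptpn5, and in 10.9% of 12382 other measured genes. The 3' UTRs of the 9 genes were longer, with a median of 2653 bases against 1242 in the other genes. The matches are printed in capitals with the bases on either side.
Rgs9, 3' UTR, from base 1368 of 2653: ttagcatacagAGCAATAggttttattat
Ptpn5, 3' UTR, from base 1000 of 1030: tcattgaatagAGCAATAaacagagcatt
The match in Ptpn5 is followed by an A, the 8-letter form, and overlaps AATAAA, the letters of a polyadenylation signal. Neither AGCAATA nor the form GCAATAA was found in Ppp1r1b, Gng7, Gnal, Rasgrp2, Arpp21, Scn4b or Syndig1l. A match is a string of letters and not a measured binding site.

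RefSeq promoter windows, 250 bases before to 50 after a start, covered 6 of the 9 genes with 17 windows. Those of Rgs9 and Scn4b are shown because these genes had 2 of the highest folds of the 9. Capitals mark the letters TGACG, the letters TATAAA and the letters GGGCGG on either strand.
Rgs9, chr11:109298132-109298431, GRCm38.p6, minus strand: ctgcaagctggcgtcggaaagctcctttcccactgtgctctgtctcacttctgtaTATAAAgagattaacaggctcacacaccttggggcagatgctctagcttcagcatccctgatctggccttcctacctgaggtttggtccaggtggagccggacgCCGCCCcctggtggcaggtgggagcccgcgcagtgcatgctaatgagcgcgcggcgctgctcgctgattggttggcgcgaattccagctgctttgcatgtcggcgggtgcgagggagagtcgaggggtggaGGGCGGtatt
Scn4b, chr9:45138374-45138673, GRCm38.p6, plus strand: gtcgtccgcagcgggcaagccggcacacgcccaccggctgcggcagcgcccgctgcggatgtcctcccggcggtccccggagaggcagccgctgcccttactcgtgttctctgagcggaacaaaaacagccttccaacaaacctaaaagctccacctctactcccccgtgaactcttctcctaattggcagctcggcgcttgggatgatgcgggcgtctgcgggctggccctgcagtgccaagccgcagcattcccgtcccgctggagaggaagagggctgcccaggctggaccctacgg
The Rgs9 window held TATAAA at position -195 from the start and GGGCGG letters 2 times, and the Scn4b window held none of the 3 motifs. The full cyclic AMP response element TGACGTCA was in 0 of the 17 windows and in 1.79% of all 32851 windows. Its shorter form TGACG, which the full element contains, was in 4 of the 17 windows and in 20.8% of all windows. Of these 4, 1 is of Gng7 and 3 are of Arpp21, and 2 of the Arpp21 windows overlap and hold the same letters, which leaves 3 separate positions. TATAAA was in 1 of the 17 and 13.6% of all, and GGGCGG in 5 of the 17 and 35.7% of all. Arpp21 has 9 of the 17 windows, with GGGCGG in 0 of them and in 5 of the 8 windows of the other genes, so the shares over 17 windows weigh 1 gene heavily.

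All 9 genes rose in KO cortex, where 6.72% of 14059 genes tested rose and 7.68% fell, 14.4% in all. In Het cortex 8 of the 9 rose and Ptpn5 did not pass the test, where 3.95% of 14159 genes tested rose and 5.06% fell. The median log2 fold of the 9 genes was 1.39 in KO against WT and 0.81 in Het against WT, and that of all genes tested was 0.01 in each comparison. The ratio of RPKM spanned 1.31 for Arpp21 to 9.91 for Scn4b in KO against WT, and 1.21 for Ptpn5 to 8.83 for Scn4b in Het against WT. Where no other value is given for a named gene that rose or fell, its adjusted p was 0.000987 in KO and 0.00135 in Het, the smallest in the authors' deposited tables.

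**Figure D1:**
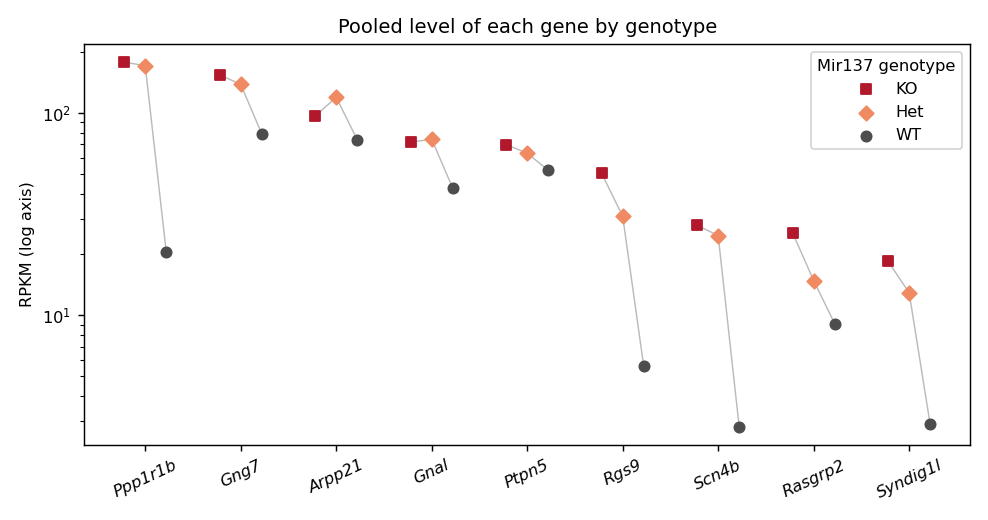
Authors' pooled RPKM (log axis) of the 9 genes in KO, Het and WT cortex, 1 point per genotype, with genes ordered by their KO level. Every gene stood above its WT level in KO and Het, and the gaps were widest for Ppp1r1b, Rgs9, Scn4b and Syndig1l.

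The G protein subunits rose by less than 2-fold. Gnal, the alpha subunit that couples the stimulatory dopamine and adenosine receptors to adenylyl cyclase, stood at 71.8 RPKM in KO and 74.4 in Het, against 42.6 in WT (authors' deposited tables). Its log2 fold was 0.74 in KO and 0.79 in Het against WT. Gng7, the gamma subunit found with Gnal in striatum, stood at 155 RPKM in KO and 139 in Het, against 79.1 in WT (authors' deposited tables). Its log2 fold was 0.96 in KO and 0.81 in Het. Gng7 was the most abundant of the 9 genes in WT cortex, at percentile 92.4 of genes tested.

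Rgs9, whose striatal protein product shortens signalling at the inhibitory dopamine receptor, rose further. It stood at 50.3 RPKM in KO and 30.9 in Het, against 5.62 in WT (authors' deposited tables). The ratio to WT was 8.95 in KO and 5.50 in Het, with log2 folds of 2.95 and 2.27. Among genes tested, its level lay at percentile 86.8 in KO and 34.7 in WT. Its 3' UTR and that of Ptpn5 hold the seed matches printed above, and their folds lay near the top and the bottom of the 9 genes.

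Ppp1r1b had the highest log2 fold of the 9 genes in KO and in Het. It stood at 179 RPKM in KO and 172 in Het, against 20.6 in WT (authors' deposited tables). The ratio to WT was 8.67 in KO and 8.35 in Het, and the log2 fold was 3.06 in KO. Each fold lay at percentile 99.9 of the folds of genes tested. It was the most abundant of the 9 genes in KO and Het cortex and the fifth in WT cortex. DARPP-32 is regulated by phosphorylation, which RNA levels do not measure.

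Ptpn5, Arpp21 and Rasgrp2 act downstream in kinase, RNA and GTPase signalling, and 2 of them moved least. Ptpn5, whose product STEP removes phosphate from the MAP kinases and Fyn, stood at 69.9 RPKM in KO and 63.4 in Het, against 52.2 in WT (authors' deposited tables). Its log2 fold was 0.41 in KO, with an adjusted p of 0.00386 in the authors' deposited table, and 0.28 in Het, with an adjusted p of 0.110 there and an unadjusted p of 0.0137. Arpp21 stood at 96.7 RPKM in KO and 120 in Het, against 73.9 in WT (authors' deposited tables). Arpp21 thus had its highest level in Het. Its log2 fold was 0.38 in KO, with an adjusted p of 0.0196 in the authors' deposited table, and 0.69 in Het. Rasgrp2, a calcium- and diacylglycerol-regulated exchange factor, stood at 25.6 RPKM in KO and 14.9 in Het, against 9.10 in WT (authors' deposited tables). Its log2 fold was 1.39 in KO and 0.65 in Het.

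The 2 genes of the membrane were low in WT cortex and rose steeply. Scn4b, the beta subunit that supports resurgent sodium current in fast-firing neurons, stood at 27.9 RPKM in KO and 24.8 in Het, against 2.81 in WT (authors' deposited tables). Its log2 folds were 2.92 in KO and 2.76 in Het. Syndig1l, also called capucin and known as a striatum-enriched transcript, stood at 18.5 RPKM in KO and 12.9 in Het, against 2.89 in WT (authors' deposited tables). Its log2 folds were 2.32 in KO and 1.84 in Het. In KO they lay at percentiles 76.3 and 66.2 of genes tested, against 20.5 and 21.0 in WT, where they were the 2 lowest of the 9 genes.

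Summed over the 9 genes, the level was 694 RPKM in KO and 652 in Het, against 289 in WT. Ppp1r1b made up 25.7% of the sum in KO and 26.4% in Het, against 7.14% in WT. Gng7 made up 22.3% in KO and 21.3% in Het, against 27.4% in WT, and Arpp21 13.9% and 18.4%, against 25.6%. The make-up of the sum therefore differed between the genotypes, with the largest share held by Ppp1r1b in KO and Het and by Gng7 in WT.

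The gain in RPKM ordered the genes differently from the ratio. Ppp1r1b gained 158 RPKM in KO and 151 in Het over WT, and Gng7, with a ratio of 1.96 in KO, gained 75.6 in KO and 59.9 in Het. Rgs9 gained 44.7 RPKM in KO and 25.3 in Het. Scn4b, with the highest ratio, gained 25.1 RPKM in KO, close to Gnal with 29.2 in KO. The smallest gains were those of Syndig1l in KO, at 15.6 RPKM, and Rasgrp2 in Het, at 5.75 RPKM. No spread is available for these differences.

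**Figure D2:**
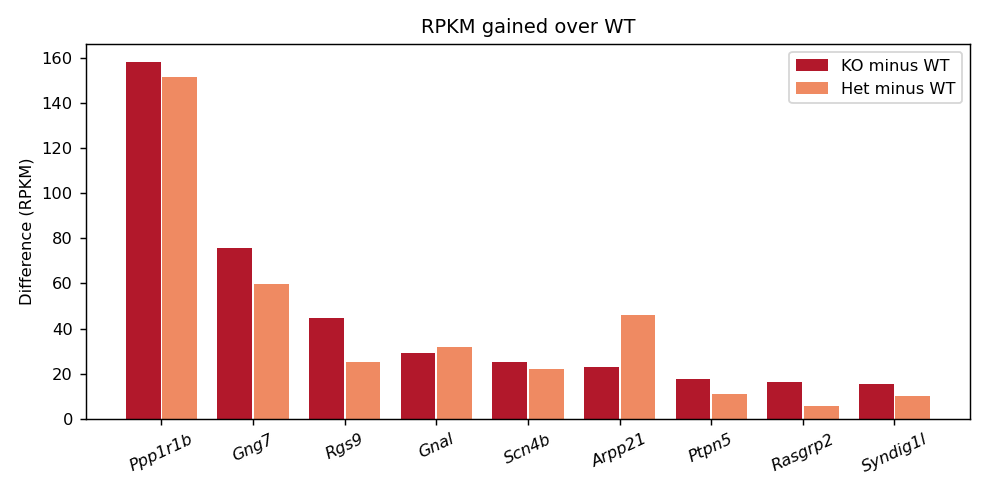
RPKM in KO minus WT and in Het minus WT, each from the authors' pooled values of 1 table, for the 9 genes, ordered by the KO difference. Bars start at 0 and carry no error since the libraries are pooled, and Arpp21 is the gene with the larger excess of Het over KO.

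KO and Het cortex were compared directly in the third table. Of the 9 genes, 1 rose and 0 fell, where 0.917% of 14062 genes tested rose and 0.953% fell, 1.87% in all. The gene was Rasgrp2, at 25.6 RPKM in KO and 15.0 in Het, with a log2 fold of 0.74 and an adjusted p of 0.00517 in the authors' deposited table. Over the 9 genes the median was 0.15, and 7 of the folds were above 0.

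Another 3 genes had an unadjusted p below 0.05 in the table of KO against Het without passing the adjustment. Syndig1l stood at 18.5 RPKM in KO, 1.42 times its Het level, with an unadjusted p of 0.00260 and an adjusted p of 0.0991 in the authors' deposited table. Rgs9 stood at 50.4 RPKM in KO and 31.1 in Het, with an unadjusted p of 0.0165 and an adjusted p of 0.301 in the authors' deposited table. Arpp21 lay the other way, at 97.1 RPKM in KO and 121 in Het, with an unadjusted p of 0.0312 and an adjusted p of 0.418 in the authors' deposited table. The remaining 5 genes, Ppp1r1b, Gng7, Gnal, Ptpn5 and Scn4b, had log2 folds between -0.05 and 0.15 and adjusted p values between 0.863 and 0.994 in the authors' deposited table. These p-values do not show that KO and Het levels were equal.

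Genes of the same families and pathways were then counted from fixed lists. Lists count genes of at least 1 RPKM in either genotype. Of 3 measured dopamine receptor genes, 2 rose and 1 fell in KO, and 2 rose in Het. Drd1a, the stimulatory receptor, stood at 7.87 RPKM in KO and 7.96 in Het, against 0.755 in WT, and the inhibitory receptor Drd2 at 12.1 in KO and 10.8 in Het, against 1.65 in WT (authors' deposited tables). Drd5, the other stimulatory receptor, fell to 2.57 RPKM in KO, against 3.88 in WT, with an adjusted p of 0.0255 in the authors' deposited table.

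**Figure D3:**
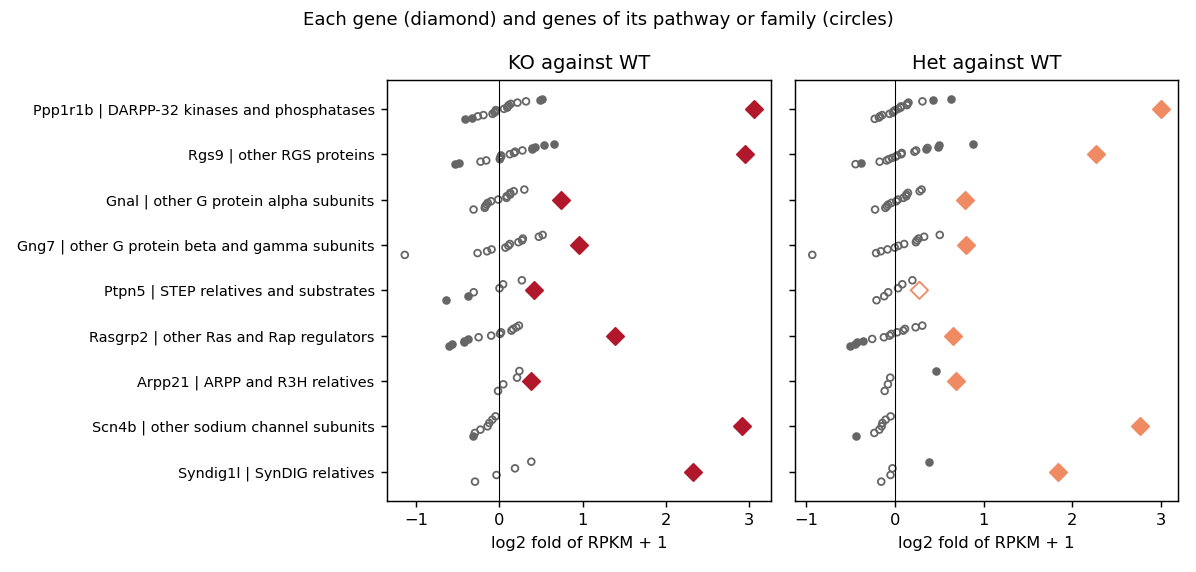
Log2 fold of RPKM + 1 in KO against WT (left) and Het against WT (right) for each of the 9 genes (diamonds) and for measured genes of its pathway or family (circles), 1 row per gene. Filled symbols passed the authors' adjusted p below 0.05, and each diamond lies to the right of all circles in its row.

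Around DARPP-32, most kinases and phosphatases did not pass the test: of 17 measured, 2 rose and 2 fell in KO, and 2 rose and 0 fell in Het. The genes that rose in both were Ppp1r1a, the related phosphatase inhibitor, and Prkar2b, a regulatory subunit of protein kinase A. Ppp1r1a stood at 101 RPKM in KO and 96.8 in Het, against 71.7 in WT, and in Het its adjusted p was 0.00520, in the authors' deposited tables. Prkar2b stood at 35.9 RPKM in KO and 39.0 in Het, against 24.9 in WT (authors' deposited tables). The genes that fell in KO were Ppp3r1, the regulatory subunit of calcineurin, and Prkar2a. Their log2 folds were -0.41 and -0.33, with adjusted p values of 0.0227 and 0.0467 in the authors' deposited table. Over the whole list the median log2 fold was 0.06 in KO and 0.04 in Het, close to the 0.01 of all genes tested.

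Of 17 other measured RGS genes and partners, 5 rose and 2 fell in KO, and 4 rose and 1 fell in Het. Rgs2, a regulator of Gq and adenylyl cyclase signalling, stood at 17.5 RPKM in KO and 20.4 in Het, against 10.7 in WT (authors' deposited tables). Rgs8 stood at 21.5 RPKM in KO and 18.7 in Het, against 14.4 in WT, with an adjusted p of 0.0141 in Het in the authors' deposited tables. Rgs14 fell to 20.7 RPKM in KO and 23.0 in Het, against 30.4 in WT, with an adjusted p of 0.0194 in Het in the authors' deposited tables. The closest relatives of Rgs9 are Rgs6, Rgs7 and Rgs11: Rgs6 rose in KO and Het, with log2 folds of 0.43 and 0.49 and adjusted p values of 0.0276 and 0.0171 in the authors' deposited tables. Rgs7 and Rgs11 had log2 folds of -0.23 and 0.28 in KO, with adjusted p values of 0.223 and 0.154 in the authors' deposited table. Gnb5, the beta subunit that stabilises this family, had log2 folds of 0.13 in KO and 0.22 in Het, with adjusted p values of 0.542 and 0.242 in the authors' deposited tables. The other members that rose were Rgs10 and Rgs20 in KO and Rgs5 in Het, with log2 folds of 0.39, 0.39 and 0.49, and the adjusted p values of Rgs10 and Rgs20 were 0.0346 and 0.0327 in the authors' deposited table. Rgs16 fell in KO, with a log2 fold of -0.48 and an adjusted p of 0.0214 in the authors' deposited table.

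No other G protein subunit on the fixed lists passed the authors' test in KO or Het. Among 13 other measured alpha subunits and exchange factors, 0 passed in the authors' deposited tables at an adjusted p below 0.05, and 1 had an unadjusted p below 0.05 in KO and 2 in Het. Among 12 other beta and gamma subunits, 0 passed in the authors' deposited tables, with 5 at an unadjusted p below 0.05 in KO and 4 in Het. Gnas, the stimulatory alpha subunit used in most tissues, stood at 830 RPKM in KO and 976 in Het, against 1029 in WT, with log2 folds of -0.31 and -0.08 and adjusted p values of 0.153 and 0.889 in the authors' deposited tables. Ric8b, the chaperone and exchange factor of the Gnal product, had log2 folds of 0.13 in KO and 0.30 in Het, with adjusted p values of 0.535 and 0.0895 in the authors' deposited tables.

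Ras and Rap regulators other than Rasgrp2 moved the other way where they passed the test: of 13 measured, 0 rose and 5 fell in KO, and 0 rose and 4 fell in Het. Rasgrp1, the abundant paralog in cortex, stood at 107 RPKM in KO and 135 in Het, against 139 in WT, with adjusted p values of 0.0266 in KO and 0.935 in Het in the authors' deposited tables. Rasgrf1, a calcium-regulated Ras activator, stood at 52.7 RPKM in KO and 54.8 in Het, against 78.7 in WT (authors' deposited tables). Rasgrf2 and Rapgef5 fell in KO and Het, Rapgef2 in KO and Rapgef6 in Het, with log2 folds between -0.60 and -0.36. Rasgrf2 had adjusted p values of 0.00386 in KO and 0.009997 in Het, and Rapgef5 of 0.00616 in KO and 0.00602 in Het, in the authors' deposited tables. Of 6 measured relatives and substrates of STEP, 2 fell in KO and 0 passed in Het. The kinase Ptk2b fell to 81.9 RPKM in KO, against 128 in WT (authors' deposited table).

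Relatives of the remaining genes showed few calls. Of 7 other sodium channel subunits, 1 fell in KO and 1 in Het, in each case Scn1a, with log2 folds of -0.31 in KO and -0.44 in Het and an adjusted p of 0.0414 in KO in the authors' deposited tables. The beta subunits Scn2b and Scn3b had log2 folds between -0.29 and -0.10 over the KO and Het comparisons. Of 4 measured relatives of Arpp21, 0 passed in KO and Arpp19 rose in Het, at 39.0 RPKM in Het against 28.1 in WT (authors' deposited table). Of 4 SynDIG relatives, 0 passed in KO and Syndig1 rose in Het, at 32.8 RPKM in Het against 24.9 in WT, with an adjusted p of 0.0188 in the authors' deposited table.

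Bulk RNA from tissue cannot tell more cells of a type from more RNA per cell. Other striatal projection neuron markers moved with the 9 genes: of 31 measured, 25 rose in KO and 25 in Het and 0 fell, with median log2 folds of 1.15 and 1.26. Their summed level was 680 RPKM in KO and 667 in Het, against 273 in WT. The list was chosen with earlier results of these libraries known and is not independent evidence of its direction. Adora2a stood at 26.4 RPKM in KO, Penk at 103 and Rxrg at 21.3, against 1.17, 10.1 and 2.41 in WT (authors' deposited table). Markers of both dopamine-receptor classes of projection neuron were among them. The part of the amount of striatal tissue or cells in these libraries was not tested.

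**Figure D4:**
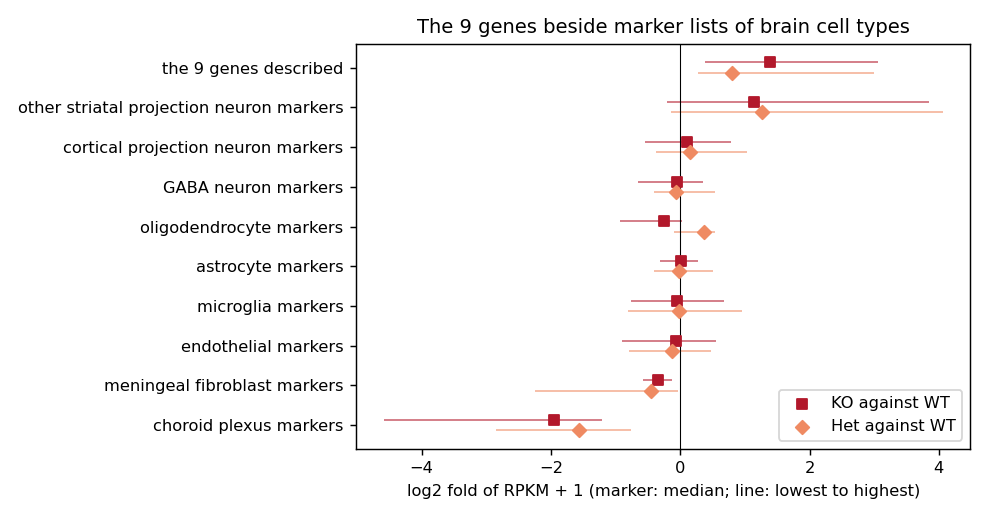
Median log2 fold of RPKM + 1 (marker) and lowest to highest gene (line) for the 9 genes and for lists of markers of brain cell types, in KO against WT and Het against WT. The 9 genes and the other striatal projection neuron markers lie to the right, and choroid plexus markers to the left.

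Markers of cortical and GABA neurons were also compared between the genotypes, which does not check the tissue label. Slc17a7, the vesicular glutamate transporter of cortical excitatory neurons, fell to 393 RPKM in KO, against 575 in WT, with a log2 fold of -0.55 and an adjusted p of 0.000987 in the authors' deposited table. In Het it stood at 484 RPKM, with an adjusted p of 0.414 in the authors' deposited table. Of 13 cortical projection neuron markers, 3 rose and 2 fell in KO, and 4 rose and 2 fell in Het, and their summed level was 682 RPKM in KO and 809 in Het, against 861 in WT. Of 8 general GABA neuron markers, 0 rose and 1 fell in KO, and 1 rose and 1 fell in Het. Pvalb fell in KO, with a log2 fold of -0.65 and an adjusted p of 0.00831 by the authors' test. In Het, Npy rose and Sst fell, with log2 folds of 0.54 and -0.40 and adjusted p values of 0.00135 and 0.00841 by that test. The list had median log2 folds of -0.06 in KO and in Het. Its summed level was 616 RPKM in KO and 556 in Het, against 594 in WT. Sst alone stood at 338 RPKM in KO and 250 in Het, against 331 in WT. Gad1, the GABA-synthesising enzyme of cortical and striatal neurons, stood at 72.9 RPKM in KO and 77.6 in Het, against 80.7 in WT, with adjusted p values of 0.472 and 0.884 in the authors' deposited tables.

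Markers of non-neuronal cells moved as well, in other directions. Of 9 measured choroid plexus markers, 9 fell in KO and 9 in Het, with a summed level of 91.0 RPKM in KO and 294 in Het, against 2078 in WT. Most of each sum was Ttr, at 83.6 RPKM in KO and 281 in Het, against 2028 in WT (authors' deposited tables). Of 10 meningeal fibroblast markers, 3 fell in KO and 6 in Het, with a summed level of 175 RPKM in KO and 131 in Het, against 246 in WT. Of 8 oligodendrocyte markers, 3 fell in KO and 2 rose in Het, with median log2 folds of -0.25 and 0.36. In KO against Het 7 of the 8 fell, with a median of -0.62. Of 8 microglia markers, 3 rose and 2 fell in KO and in Het. Of 8 endothelial markers, 1 rose and 2 fell in KO, and 1 rose and 3 fell in Het. Of 8 astrocyte markers, 0 passed in KO, where 2 had an unadjusted p below 0.05 in the authors' deposited table, and 1 rose and 1 fell in Het. The median log2 folds of the microglia, endothelial and astrocyte lists against WT lay between -0.12 and 0.01. The part of these shifts in the levels of the 9 genes was not tested. Markers of dopamine-releasing neurons differed in level, and 3 of 6 were measured. Slc6a3, the dopamine transporter, had 0.224 RPKM in KO, 0.248 in Het and 0.214 in WT. Pitx3 had 0.0121, 0.00866 and 0.0105, and Th was also below 1 RPKM. Ddc and Slc18a2 lay between 3.26 and 4.79 RPKM across the genotypes and did not pass. Nr4a2 was the highest, with 18.0 RPKM in KO, 8.17 in Het and 10.8 in WT. By the authors' test it rose in KO against WT, with an adjusted p of 0.000987. It also rose in KO against Het, with an adjusted p of 0.00517, and did not pass in Het against WT.

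Among 9795 other genes of at least 5 RPKM in KO or Het, the 6 whose log2 folds in KO and Het lay nearest to the medians of the 9 genes were Ccl27a, Dlx6, Snora17, Ybx3, A930005H10Rik and Mir703. The measure is the distance in the plane of the 2 folds, which share the WT values, over 3 genotypes, and it ran from 0.112 for Ccl27a to 0.263 for Mir703. Of the 6, Ybx3 and A930005H10Rik rose in KO and in Het, with an adjusted p of 0.00764 for A930005H10Rik in Het in the authors' deposited table, while Ccl27a rose in KO and did not pass in Het. Ybx3, a nucleic acid-binding protein, stood at 63.5 RPKM in KO and 37.7 in Het, against 24.2 in WT (authors' deposited tables). Ccl27a had adjusted p values of 0.00616 in KO and 0.247 in Het in the authors' deposited tables. Dlx6, a homeobox gene of ventral forebrain, had log2 folds of 1.29 in KO and 0.90 in Het, with adjusted p values of 0.0691 and 0.148 in the authors' deposited tables. Snora17 and Mir703 did not pass the authors' test in KO or Het. Their adjusted p values were 0.814 and 0.179 in KO, and 0.930 and 0.684 in Het. A small distance between folds says nothing of shared function or control.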

How the data were processed

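Libraries of dissected cortex were made with the TruSeq RNA kit v2 and read as Illumina paired ends, per the labels' protocols. This kit does not mark strand, so reads of a gene and an antisense or overlapping neighbour cannot be told apart. Per the submitters' processing notes, the tools were Cuffdiff 2.2.1, TopHat2 2.0.13 and CASAVA 1.4 on build mm9, with no role stated, and the annotation is not given in the sources used here. The deposited RPKM, 1 per genotype in each of 3 tables per the file headers, pool the 4 libraries of a genotype, grouped by the genotype in the titles. Library depth is unknown. The deposited p-value and q-value columns come from the authors' own test, and Benjamini-Hochberg adjustment over rows whose p is below 1, here taken as tested, returns the same q-values. No own test was possible. Levels of KO and WT come from the table of KO against WT and Het levels from that of Het against WT. For the 9 genes, a genotype's value differed by at most 0.666% between tables.

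The 9 genes, the 21 lists and the alternatives were chosen with earlier results of these data known. Named genes are all 9, up to 4 called genes per list by smallest q and then largest fold, family members that passed, and the 6 genes nearest in fold; some genes that the rule names are not reported here. Ric8a had no row under that symbol, while its older symbol Ric8 did. 3' UTRs came from GENCODE M21, found for 91.6% of other measured genes, and promoters and microRNAs from RefSeq on GRCm38.p6. The software was pandas 2.3.3, numpy 2.4.6 and matplotlib 3.10.9 under Python 3.11.15. Only the log2 folds, the adjustment and the calls were tested on simulated data.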

Additional observations from a re-analysis of the deposited data

Results flagged for a closer look

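Rasgrp2 was the gene of the 9 whose rise over WT differed between KO and Het by a test of that difference. Its log2 fold in KO against Het was 0.74, with 25.6 RPKM in KO, 15.0 in Het and an adjusted p of 0.00517 in the authors' deposited table. With the libraries pooled, no single library could be examined for an outlying value.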

How the results depend on the processing

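The alternatives tried were a threshold of 0.01, a minimum log2 fold of 0.5 and adjustment over the 3 tables together. Recentred folds, pseudocounts of 0.1 and 0.01, and a minimum of 5 RPKM or none were also tried. The genes that rose numbered 7 to 9 in KO against WT and 8 in Het against WT. Only the first 3 alternatives could move these counts. Recentred folds and a pseudocount of 0.1 kept the authors' adjusted p, and the remaining settings were not applied to the counts of the 9 genes. Median log2 folds of the 9 genes spanned 1.39 to 1.49 in KO against WT, 0.80 to 0.81 in Het against WT and 0.15 in KO against Het. No gene's fold changed sign in the 54 recomputed values, which could not have come out otherwise. A pseudocount cannot change a sign, and the smallest fold, 0.047 for Ppp1r1b in KO against Het, exceeded the shift from recentring. In KO against Het, adjustment over the 3 tables together gave 2 genes that rose in place of 1, adding Syndig1l at an adjusted p of 0.0364. Calls among all listed genes in KO against Het numbered 8 at a threshold of 0.01, against 16 at 0.05, since the bar is stricter. At 0.01 Arpp21 was not called in KO, and at a minimum log2 fold of 0.5 neither were Arpp21 and Ptpn5. Recentring moved folds by at most 0.01. No paired analysis was possible because the columns hold pooled genotypes, and for the same reason no library could be left out.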

Other observations

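Markers of striatal cholinergic and pallidal neurons were low: in KO and WT 0 of 7 reached 1 RPKM, and in Het 2 of the 7 did. Slc5a7, the choline transporter, rose in Het to 1.08 RPKM, against 0.280 in WT, and fell in KO against Het, at 0.484 RPKM in KO, with adjusted p values of 0.00135 and 0.00517 in the authors' deposited tables. Kcnab1, a potassium channel beta subunit, was the marker of the striatal list that fell in KO against Het, at a log2 fold of -0.46 and an adjusted p of 0.0294 in the authors' deposited table.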
